A study of Mus musculus with 12 samples.

Results

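The pericentromeric ends of the 19 mouse autosomes were examined as the first 2 Mb of assembled sequence on each chromosome, positions 3000001 to 5000000 of chromosomes 1 to 19 in GRCm38 (mm10). Their members are set by position and not by a measured value, and they held 311929 CpG sites of 20383623 autosomal sites and of 21867550 sites in the whole matrix. Each site was set against CpG sites at 20 to 40 Mb of the same chromosomes (3157537 sites) with the same CpG density, which is the number of CpG sites within 100 bp on each side. This second region is called the control region below.

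Enhanced reduced representation bisulfite sequencing, in which bisulfite converts unmethylated cytosine so that the surviving cytosines can be counted as methylated, was applied to 12 lines of mouse embryonic stem (ES) cells. All 12 lines carried a knockout of Dnmt1, Dnmt3a and Dnmt3b, received a pPyCAGIZ vector that expressed a human de novo DNA methyltransferase, and were selected in Zeocin at 50 and then 25 µg/ml. The 6 groups of 2 lines carried wild-type (WT) DNMT3A, WT DNMT3B in set a, DNMT3B N656I, WT DNMT3B in set b, DNMT3B K777A or DNMT3B N779A. DNMT3A and N656I were compared with WT set a, and K777A and N779A with WT set b. N656 lies in the catalytic loop of DNMT3B and K777 and N779 lie on its DNA-contacting target recognition domain. The methods describe pooled stable lines and lines grown from single cells without saying which is which here, expression came from a vector and not from the genes' own promoters, and a line without enzyme was not analysed here. P-values between groups therefore rest on the spread between lines of a group. Sign-flip p-values rest on the spread over all 12 lines, and not on a spread over regions.

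Mouse centromeres lie at one end of each chromosome, next to the first assembled bases. Their surroundings are built of tandem major satellite repeats, packed with H3K9 and H4K20 methylated histones into heterochromatin that clusters in the nucleus as chromocentres. The satellites themselves are mostly missing from the assembly, so that the ends described here are largely other sequence beside them. DNMT3A and DNMT3B place new methyl groups on CpG sites in early development, in the mouse DNMT3A is known for methylating the pericentromeric major satellite and DNMT3B the centromeric minor satellite, and loss of human DNMT3B function causes ICF syndrome with unstable pericentromeres. DNMT1, which copies methylation after replication, is absent from these cells.

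3 stretches of 10 kb in the ends had the most reads summed over 12 lines, and the sequence of a piece of each shows what kind of DNA was measured there. The ranking is that of the whole stretches and not of the pieces. Their order rests on 3 lines, as given with the chromosome 9 repeat: in each of the other 9 lines the chromosome 11 stretch had the most reads. Each piece is printed 5′ to 3′ on the plus strand of the RefSeq GRCm38 genome as 200 bases around the deepest CpG of its 10-kb stretch, with every CpG in capitals.
chr9:3001354-3001553: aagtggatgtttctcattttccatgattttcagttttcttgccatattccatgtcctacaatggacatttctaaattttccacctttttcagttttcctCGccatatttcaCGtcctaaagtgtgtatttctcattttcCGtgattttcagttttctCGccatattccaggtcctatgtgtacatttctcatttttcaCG
chr11:3193682-3193881: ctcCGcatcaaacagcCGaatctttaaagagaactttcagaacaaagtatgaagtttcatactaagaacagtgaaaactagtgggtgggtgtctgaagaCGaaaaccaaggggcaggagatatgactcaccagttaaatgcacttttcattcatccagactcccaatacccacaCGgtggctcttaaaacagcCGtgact
chr9:3024358-3024557: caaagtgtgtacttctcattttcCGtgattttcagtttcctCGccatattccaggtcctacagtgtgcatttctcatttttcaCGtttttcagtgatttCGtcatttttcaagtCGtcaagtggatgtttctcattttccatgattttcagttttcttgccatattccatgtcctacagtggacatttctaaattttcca
Both chromosome 9 pieces come from the first 40 kb of that chromosome, which is tandem sequence: shifted by 234 bp against itself, 69.4% of its bases were identical, against a median of 31.1% over the shifts tried. A unit of 234 bp is that of the mouse major satellite. The chromosome 11 piece showed no such period, with at most 29.0% identity at any shift within its 10-kb stretch.

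In percentage points, the pericentromeric ends carried nearly the same methylation as density-matched control sites, and both differed far more between lines than from each other. As a ratio of ends to control, the lines ran from 0.871 in WT set b replicate 1 to 1.34 in K777A replicate 1. Over sites with at least 10 reads, 27.3% and 33.5% of cytosines were methylated at the ends in the DNMT3A lines, 13.6% and 13.8% in WT set a, 12.1% and 9.40% in N656I, 11.8% and 9.94% in WT set b, 5.57% and 6.57% in K777A, and 10.0% and 8.71% in N779A. The density-weighted control levels were 28.6% and 34.3% in DNMT3A, 14.5% and 14.4% in WT set a, 12.7% and 9.5% in N656I, 13.6% and 10.9% in WT set b, 4.15% and 6.29% in K777A, and 9.81% and 9.81% in N779A. Both DNMT3A lines were above every DNMT3B line, both K777A lines were below every other line, and N779A overlapped WT set b. Between 1780 and 11790 pericentromeric sites reached 10 reads in a line.

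The 12 lines differed from their control by -1.75 to 1.42 percentage points, with a mean of -0.522 ± 0.851 (SD, n = 12), and 9 of 12 were below it. This did not pass the exact sign-flip permutation test over lines (two-sided p = 0.0596, where 0.000488 is the smallest p that 12 lines allow). The 3 lines above their control were both K777A lines (1.42 and 0.274 points) and N779A replicate 1 (0.226 points). The same 3 lines had many more reads in the chromosome 9 repeat, as described below. Without the first 40 kb of chromosome 9 the mean was -0.684 points, 10 of 12 lines were below the control and the exact permutation p was 0.00586; the K777A lines then stood at 0.135 and -0.179 points, and N779A replicate 1 moved the other way, to 0.422 points. With every covered site the mean was -0.387 points and 11 of 12 lines were below (exact permutation p = 0.00146), whereas a minimum of 20 reads turned the mean to 1.32 points (exact permutation p = 0.0405).

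**Figure D1:**
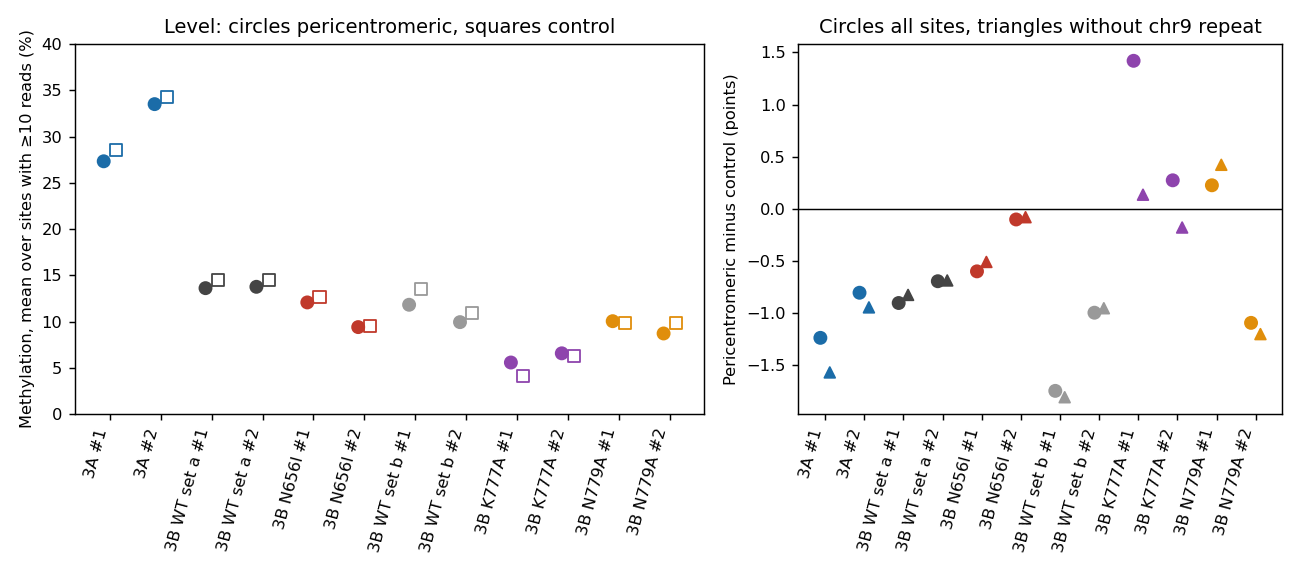
Methylation at the pericentromeric ends (filled circles) and at density-weighted control sites (open squares) in each of the 12 lines, in percent, and their difference in percentage points with all sites (circles) and without the first 40 kb of chromosome 9 (triangles). The ends follow the control level of each line, and removing the chromosome 9 repeat brings the K777A lines from 1.42 and 0.274 to 0.135 and -0.179 points and N779A replicate 1 from 0.226 to 0.422 points.

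Over every covered site, and not only those with at least 10 reads, the small deficit lay in genes and outside soft-masked repeats. Within protein-coding genes, which hold 146344 of the pericentromeric sites, those covered in a line were compared with genic control sites, and all 12 lines were lower, by -1.67 to -0.115 points with a mean of -0.701 ± 0.451 (SD, n = 12; exact sign-flip permutation test, Benjamini-Hochberg adjusted p = 0.00179 over 11 subsets). The lines share these regions, so this and the other sign-flip p-values show repeatability over lines. They do not show that the ends differ from other regions. Of all autosomal 2-Mb windows, 24.6% were below the level expected from their CpG density in all 12 lines. The DNMT3A lines showed the widest gaps in points, at 32.4% against 34.1% and 33% against 34.4%. Outside genes (165585 sites, covered or not) the mean difference was 0.0842 ± 0.430 points (SD, n = 12) and 5 of 12 lines were lower (adjusted exact permutation p = 0.520). The genic difference was below the non-genic one in 12 of 12 lines, with a mean of -0.785 ± 0.459 points (SD, n = 12; exact permutation test, adjusted p = 0.000732 over 3 such contrasts).

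Sites outside soft-masked repeats behaved in the same way, again with every covered site: 12 of 12 lines were below control, by -0.534 ± 0.398 points (SD, n = 12; exact permutation test, adjusted p = 0.00179), while at soft-masked repeats 3 of 12 were below and the mean was 0.0814 ± 0.405 (adjusted p = 0.520). The unmasked difference was the lower in 11 of 12 lines (exact permutation test, adjusted p = 0.000977). Leaving out chromosome 7, the end with the lowest methylation, kept 12 of 12 lines below control in genes (mean -0.550 points) and outside repeats (mean -0.384 points).

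By CpG density, also with every covered site, classes from 2 to 7 passed the test. The largest mean difference was that of the class 5 to 7, at -0.782 points with 10 of 12 lines below (adjusted exact permutation p = 0.00859, n = 12). At a density of 4 the mean difference was -0.760 ± 0.684 points and all 12 lines were below (adjusted exact permutation p = 0.00179, n = 12), and at 3 it was -0.431 points with 11 of 12 below (adjusted exact permutation p = 0.00269). At 2 it was -0.334 points with 10 of 12 below (adjusted exact permutation p = 0.0188). At 12 or more CpG sites, the density of CpG islands, methylation was 1.29 to 3.75% in the ends and the difference was 0.0928 ± 0.376 points (adjusted exact permutation p = 0.520, n = 12). The density-4 difference was below that at 12 or more in 12 of 12 lines (exact permutation test, adjusted p = 0.000732). Levels in the ends were 7.07 to 39.4% at density 4, and the low levels at 12 or more left little room for a gap in points. This contrast therefore cannot tell an effect of density from that of a low level. The ends held more soft-masked sites than the control region (33.2% against 25.0%), fewer sites in protein-coding genes (46.9% against 50.4%) and more sites at the highest density (8.70% against 7.39%). Density is already weighted in the comparison. Over sites with at least 10 reads, with density alone weighted and not chromosome, the mean difference was -0.425 points (exact permutation p = 0.0981, n = 12). With no weighting it was -0.640 points over these sites (exact permutation p = 0.117, n = 12).

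Moving away from the centromere, the ends did not stand out from the chromosome arm. For this profile the methylation of a bin was divided by the level expected from each line's own mean at the same CpG density, so that 1 is the autosomal average. The first 2 Mb lay at 0.922 to 0.990 with a median of 0.975 and were below 1 in 12 of 12 lines. The next 2 Mb had a median of 0.981, also below 1 in 12 of 12 lines, while at 8 to 10 and 10 to 12 Mb no line was below 1. The lowest bin of the first 40 Mb was not at the end but at 16 to 18 Mb, with a median of 0.936. Within the ends, the first 0.25 Mb ranged widely, from 0.911 to 1.08, with 7 of 12 lines below 1, and the last 0.25 Mb narrowly, from 0.944 to 0.974, with 12 of 12 below 1.

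**Figure D2:**
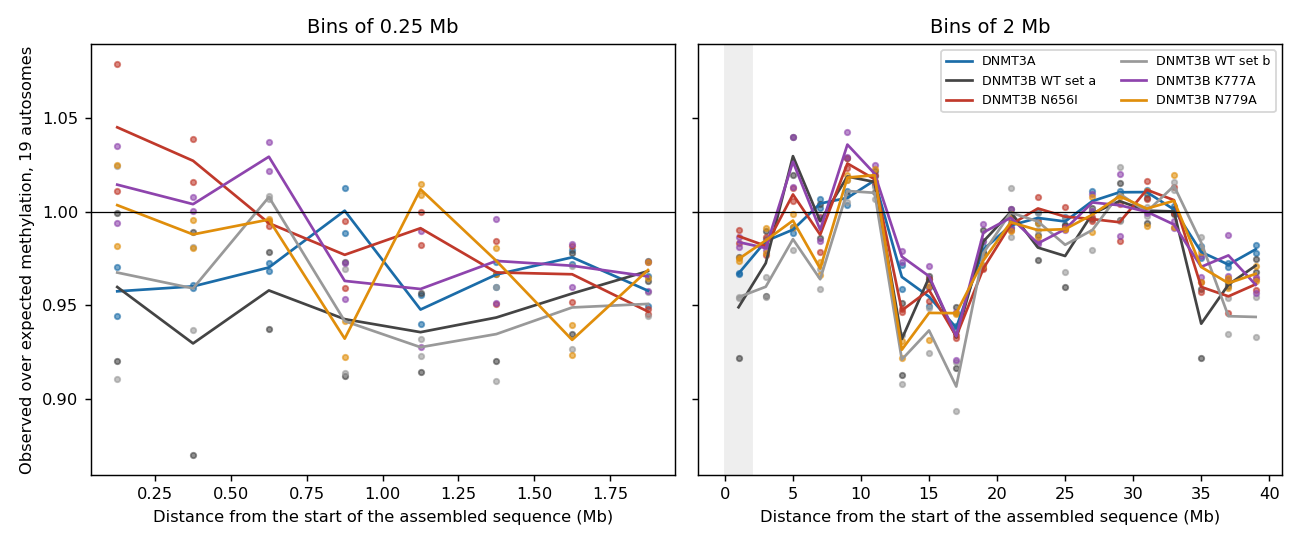
Observed over expected methylation against the distance from the start of the assembled sequence, summed over 19 autosomes, in bins of 0.25 Mb over the pericentromeric ends and of 2 Mb over the first 40 Mb (shaded: the ends). Points are single lines and curves are group means; the shaded bin, with a median of 0.975, is no lower than the bins at 12 to 18 Mb.

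The 19 ends differed from each other in a pattern that most lines shared. The same observed over expected measure was taken over each end with every covered site, as a geometric mean over 12 lines. It ran from 0.775 on chromosome 7 to 1.11 on chromosome 18, and 13 of 19 ends were below 1, where 54.3% of all 1211 autosomal windows of 2 Mb were. No end fell in the lowest or highest 5% of all windows. The spread over ends (SD 0.129 on the log2 scale) was below that over all windows (0.179). 6 ends, those of chromosomes 1, 7, 8, 11, 17 and 19, were below 1 in every line, and those of chromosomes 12 and 18 were above 1 in every line; of all windows, 24.6% and 15.4% did so.

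Chromosome 7 had the lowest end, with 20743 CpG sites and 62 protein-coding genes, among them Kmt5c, which encodes an H4K20 methyltransferase of pericentric heterochromatin. Its ratio was 0.778 and 0.814 in the DNMT3A lines, 0.773 and 0.579 in WT set a, 0.791 and 0.811 in N656I, 0.772 and 0.803 in WT set b, 0.774 and 0.767 in K777A, and 0.818 and 0.861 in N779A. All 12 values were below 1, and WT set a replicate 2, the library with the fewest covered sites (14839 at the ends, against 50489 to 152731 in the others), was the lowest. Chromosome 14 followed with a mean of 0.842, from 0.724 in a K777A line to 1.11 in an N656I line, and chromosome 8 with 0.861, from 0.782 to 0.961. These lay at the 7.02, 14.1 and 17.6 percentiles of all windows.

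The highest ends were those of chromosomes 18, 13 and 5. Chromosome 18 reached 1.11 as its mean, at the 91.1 percentile of all windows, from 1.01 to 1.18 over the lines. Chromosome 13 averaged 1.07, and its DNMT3A lines (0.981 and 0.956) were the only lines below 1, against 1.05 and 1.10 in WT set a. Chromosome 5 averaged 1.05, and WT set a replicate 2, at 0.841, was its only line below 1. The number of protein-coding genes at an end and its ratio were weakly related over the 19 ends (Spearman's rho = -0.237, as a description).

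**Figure D3:**
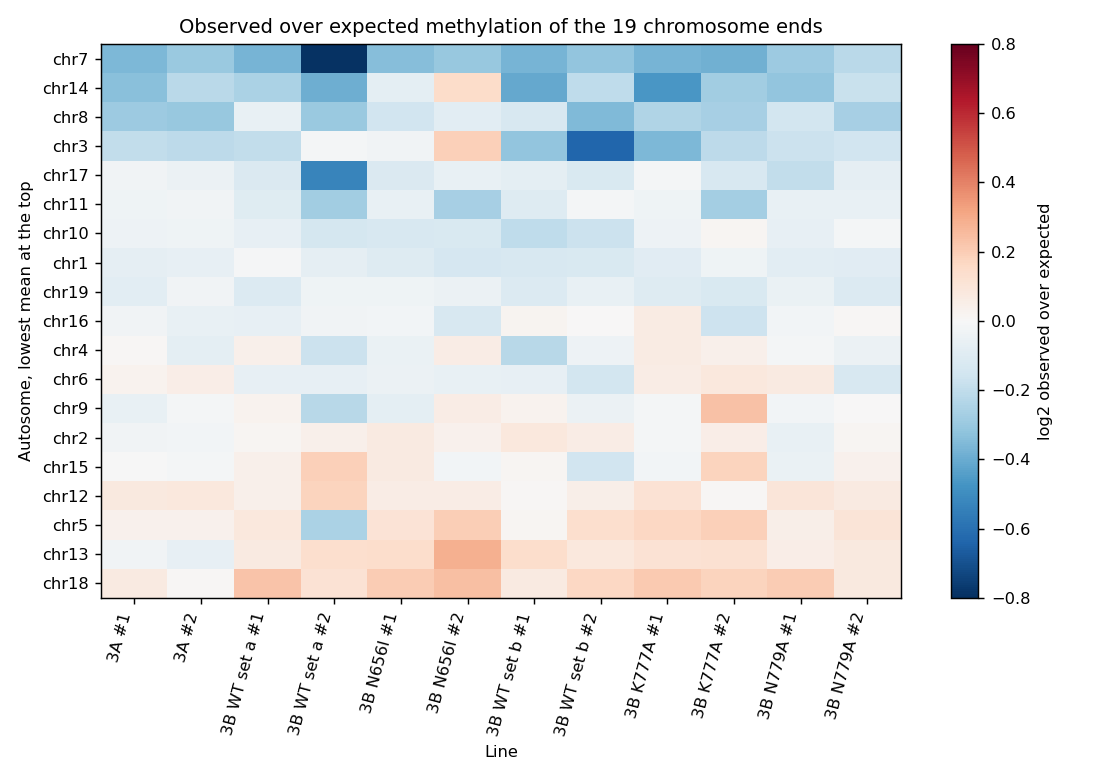
Observed over expected methylation of the 19 chromosome ends in each line on a log2 scale, with the lowest end at the top. Chromosomes 7 and 8 are below expectation in all 12 lines and chromosomes 12 and 18 above it in all 12.

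The DNMT3A lines were compared with WT set a to ask how the wild-type enzymes differ. The ends carried 30.4% ± 4.37 in DNMT3A and 13.7% ± 0.103 in WT set a (SD, n = 2 each), a difference of 16.7 points with no overlap (exact permutation p = 0.333, the smallest that 2 lines against 2 allow). The control sites rose alongside: the log2 ratio of ends to control was -0.0491 ± 0.0210 in DNMT3A and -0.0819 ± 0.0153 in WT set a, a difference of 0.0328 (exact permutation p = 0.333, n = 2 each). The size of this difference moved with the processing, from 0.00568 with a minimum of 5 reads to 0.115 with a minimum of 20, and the lines overlapped at 5 reads, with every covered site (0.0139) and without weighting of the control (0.0130; exact permutation p = 1 for each of these, n = 2 each), as they did without the first 40 kb of chromosome 9 (0.0166; exact permutation p = 0.667). In limma over 1211 windows of 2 Mb, where each line was centred on its median window, 0 of 19 ends and 0 of all windows were called at an adjusted p of 0.05 (percent called over all windows 0; 2 ends and 78 windows had an unadjusted p below it). edgeR's quasi-likelihood test on reads without centring, which asks about the level itself, called 19 of 19 ends higher in DNMT3A, as it did 99.8% of all windows. By limma the changes of the ends ran from -0.15 on chromosome 13 to 0.28 on chromosome 17 on the log2 scale (adjusted p = 0.605 for both), with a median of 0.011 against -0.0056 for all windows. 5 ends were non-overlapping upwards and 5 downwards, where 22.3% and 23% of all windows were. The limma count depended on single WT set a libraries: without replicate 1, which leaves only the thinly covered library as control, assumed to vary like the DNMT3A lines, 13 ends and 766 windows were called. Of these ends, those of chromosomes 4, 5, 6, 7, 9, 10, 11 and 17 were higher and those of chromosomes 2, 3, 12, 13 and 15 lower. Without replicate 2, 4 ends (those of chromosomes 6, 8, 13 and 18) and 263 windows were. The end of chromosome 13 was lower and that of chromosome 6 higher in both.

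N656I was compared with WT set a to ask what the catalytic-loop residue changes. The ends carried 10.7% ± 1.89 in N656I and 13.7% ± 0.103 in WT set a (SD, n = 2 each), a difference of -2.95 points with no overlap (exact permutation p = 0.333). The log2 ratio of ends to control was -0.0428 ± 0.0385 in N656I, 0.0391 above WT set a (exact permutation p = 0.333, n = 2 each), but the lines overlapped at a minimum of 20 reads (0.00159; exact permutation p = 1) and without weighting of the control (0.0268; exact permutation p = 0.667). They also overlapped with reads counted equally (0.0542, exact permutation p = 0.667). limma called 0 of 19 ends and 0% of all windows (3 ends and 58 windows had an unadjusted p below 0.05), and edgeR called 0 windows, ends included (0 ends and 56 windows with an unadjusted p below 0.05). Without WT set a replicate 1, limma called 3 ends, those of chromosomes 5, 7 and 17, all higher, and 246 windows. The largest change was that of chromosome 14, at 0.35 on the log2 scale with an SE of 0.29 (limma adjusted p = 0.841). 5 ends did not overlap and were higher, against 16% of all windows, and 1 was lower, against 19%.

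K777A was compared with WT set b to ask what the residue next to the base after the CpG changes. The ends carried 6.07% ± 0.703 in K777A and 10.9% ± 1.33 in WT set b (SD, n = 2 each), a difference of -4.81 points with no overlap (exact permutation p = 0.333). It was -2.12 points with a minimum of 20 reads and -1.99 points with reads counted equally, still without overlap. The log2 values of the ratio of ends to control were 0.425 and 0.0614 in K777A and -0.199 and -0.138 in WT set b, a difference of 0.411 (exact permutation p = 0.333, n = 2 each). This was the largest difference of the 4 comparisons as measured at 10 reads, but it was 0.175 without the first 40 kb of chromosome 9, and with every covered site it was 0.0457, below the 0.0514 of N656I. With a minimum of 20 reads it was 0.261 and the lines overlapped (exact permutation p = 0.667, n = 2 each). limma called 0 of 19 ends, against 2.73% of all windows (3 ends and 247 of 1211 windows had an unadjusted p below 0.05). With a minimum of 5 reads per site 5 windows were called, 1 of them the end of chromosome 9, which holds the repeat (0.56 on the log2 scale with an SE of 0.12, limma adjusted p = 0.00234). edgeR called 18 of 19 ends lower, against 99.3% of all windows. 6 ends did not overlap and were higher relative to the genome median, against 32.8% of all windows, and 1 was lower, against 18.8%.

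N779A was compared with WT set b for the neighbouring residue. Its ends carried 9.37% ± 0.939 against 10.9% ± 1.33 (SD, n = 2 each), a difference of -1.50 points with overlap (exact permutation p = 0.667). The overlap depended on the processing: the lines were apart with a minimum of 5 reads (-1.41 points), with 20 reads (-1.02 points), without chromosome 9 (-1.67 points) and with every line weighted to the same CpG density (-0.488 points; exact permutation p = 0.333 for each, n = 2 each). The log2 ratio of ends to control was 0.0328 and -0.171 in N779A and -0.199 and -0.138 in WT set b, a difference of 0.0995 with overlap (exact permutation p = 0.667, n = 2 each). The lines were apart with every covered site (0.0313), with reads counted equally (0.183) and without weighting of the control (0.184, exact permutation p = 0.333 for each). limma called 0 of 19 ends, against 1.73% of all windows (2 ends and 196 of 1211 windows had an unadjusted p below 0.05), and edgeR called 0 of 19 (1 end and 275 of 1211 windows with an unadjusted p below 0.05), against 0.0826% of all windows higher and 0.413% lower. The end nearest to a call, singled out after its values were seen, was that of chromosome 3, with 0.30 on the log2 scale relative to the genome median and an SE of 0.096 (limma adjusted p = 0.0855). It was called without centring (0.31, limma adjusted p = 0.0469), with 34 windows in all, and without WT set b replicate 1, with 99 windows in all, where 1 control line is left and is assumed to vary like the N779A lines. Its ratio was 0.890 and 0.899 in N779A and 0.804 and 0.645 in WT set b. 5 ends did not overlap and were higher, against 27.2% of all windows, and 2 were lower, against 20.1%.

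The deepest sites of the ends lay mostly in the tandem repeat on chromosome 9 and on chromosome 11. Of 14280 autosomal sites in the top 0.1% by reads summed over 12 lines, 566 were pericentromeric, which is 3.96% of deep sites where 1.47% of covered sites were pericentromeric. The first 40 kb of chromosome 9 held 231 of them (40.8%), which were all the deep sites at the end of chromosome 9, and chromosome 11 held 123. Both K777A lines and N779A replicate 1 supplied most reads of the repeat. Summed over the other 9 lines, a choice made after seeing the data, 391 of 10977 deep sites were pericentromeric (3.56%), with 114 on chromosome 11 and 95 in the repeat. In GENCODE the chromosome 9 repeat is annotated with the lincRNA Gm26870 and predicted genes such as Gm10722, Gm11168, Gm10719, Gm10718 and Gm10717. Over 12 lines, the 5 10-kb stretches with the most reads began 0, 20 and 10 kb into the assembled chromosome 9, 190 kb into chromosome 11 and 100 kb into chromosome 12, with 112457, 56583, 16583, 68269 and 36852 reads. Over the 9 other lines the stretch on chromosome 11 came first with 55745 reads, and these stretches on chromosome 9 had 17982, 15306 and 4244. A median stretch had 769.5 reads over 12 lines.

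In the chromosome 9 repeat the DNMT3A lines again stood above all DNMT3B lines, and K777A was no longer the lowest group. Methylated reads made up 48.5% and 46.7% in the DNMT3A lines, 15.1% and 15.8% in WT set a, 8.89% and 10.4% in N656I, 15.7% and 13.3% in WT set b, 10.7% and 12.3% in K777A, and 12.6% and 14.2% in N779A. DNMT3A was above WT set a by 32.2 points, N656I differed from it by -5.79 points and K777A from WT set b by -3.02 points, each without overlap (exact permutation p = 0.333, n = 2 each). N779A overlapped WT set b (exact permutation p = 0.667).

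The number of reads in the repeat set 3 libraries apart. The repeat took 1926 and 2158 of every 1000000 autosomal reads in the K777A lines and 1897 in N779A replicate 1, against 177 to 335 in the other 9 lines, N779A replicate 2 included. The stretch 100 kb into chromosome 12 followed, with 8225 and 12984 reads in K777A, 6488 in N779A replicate 1 and 593 to 1912 elsewhere, and the stretch 190 kb into chromosome 11 did not, with 4087, 6174 and 2263 reads in those 3 lines and 2803 to 11158 elsewhere. Whether more satellite DNA entered these libraries or more was kept in alignment was not tested.

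The CpG sites of the repeat sit in a few sequence contexts, which are shown because the activity of these enzymes is known to vary with the bases around a CpG. The deposited counts add the reads of both strands at a CpG, so each context is given on the plus strand and stands also for its reverse complement, and the bases after the CpG differ between the strands. With 3 bases on either side and CpG in capitals, the 6 contexts with the most reads took 20.3%, 19.9%, 18.4%, 12.4%, 10.3% and 7.87% of the repeat's reads in this order.
context 1: cctCGcca
context 2: ttcCGtga
context 3: tcaCGtcc
context 4: tctCGcca
context 5: tcaCGttt
context 6: tttCGtca
Within the repeat, cctCGcca was methylated at 13.3% and 13.6% in WT set b but at 6.51% and 7.42% in K777A, and tctCGcca at 20.3% and 13.2% but at 6.90% and 7.05%. K777A was lower in both without overlap.
The context tcaCGttt went the other way, from 5.91% and 5.22% in WT set b to 8.55% and 11% in K777A. At ttcCGtga K777A was lower without overlap (12.5% and 14.2% against 16.7% and 15.4%), and at tcaCGtcc the lines overlapped. At tttCGtca they overlapped as well, with 18.1% and 12.7% in WT set b and 14.4% and 15.8% in K777A.
At control sites of the same 8 bases, cctCGcca stood at 10.7% and 9.18% in WT set b and 5.82% and 6.15% in K777A, and tctCGcca was also lower in K777A without overlap (5.68% and 7.73% against 16.6% and 10.1%). The context tcaCGttt was higher there as in the repeat (12.1% and 15.4% against 6.11% and 8.26%). The other contexts did not keep their pattern. In the control region ttcCGtga was higher in K777A (12.1% and 11.6% against 10.2% and 9.41%), the opposite of the repeat. There tcaCGtcc was higher as well (10.7% and 11.5% against 7.36% and 9.20%), and tttCGtca was lower (10.3% and 12.7% against 13.8% and 16.4%), where the repeat lines overlapped.

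When each read of the repeat was assigned the control level of its context in the same line, the repeat was expected at 43.1% and 41.0% in DNMT3A, 13.2% and 11% in WT set a, 11.4% and 9.27% in N656I, 10.4% and 10.3% in WT set b, 9.29% and 10.4% in K777A, and 9.87% and 10.5% in N779A. Observed over expected was 1.13 ± 0.00901 in DNMT3A, 1.29 ± 0.212 in WT set a, 0.95 ± 0.239 in N656I, 1.40 ± 0.154 in WT set b, 1.17 ± 0.0201 in K777A and 1.32 ± 0.0514 in N779A (SD, n = 2 each). N656I replicate 1, at 0.781, was the only line under its expectation. N656I and K777A were each below their WT set without overlap (differences -0.340 and -0.228, exact permutation p = 0.333 for both), and DNMT3A overlapped WT set a (exact permutation p = 0.667). Against the plain control mean over all contexts, the repeat stood at 1.65 and 1.62 in K777A and at 1.16 and 1.06 in WT set b.

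**Figure D4:**
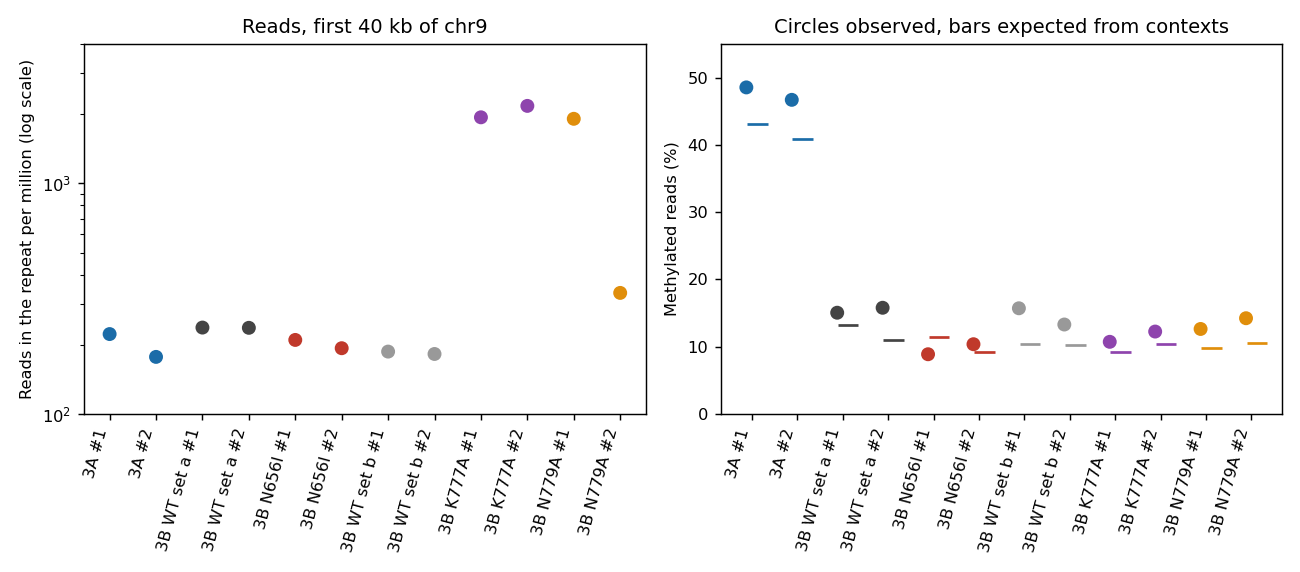
Reads in the first 40 kb of chromosome 9 per 1000000 autosomal reads (log axis), and the percentage of methylated reads there (circles) with the level expected from control sites of the same 8 bases (bars), in each of the 12 lines. Both K777A lines and N779A replicate 1 lie between 1897 and 2158, and 11 of 12 circles lie above their bars.

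Of the single positions printed above, the first differed between K777A and WT set b. The CpG at chr9:3001453, a cctCGcca site in the piece printed first, had 12700 reads in all. It was methylated at 1.86% (95% exact binomial interval 1.40 to 2.43%) and 2.13% (1.76 to 2.56%) in K777A and at 12.1% (6.42 to 20.2%) and 14.3% (8.04 to 22.8%) in WT set b. The intervals of these lines did not overlap, with 99 and 98 reads in WT set b. N779A was low there too, at 4.61% (3.86 to 5.45%) and 5.56% (3.38 to 8.54%), but the interval of its replicate 2 overlapped those of both WT set b lines. The DNMT3A lines had 16.1% (11.1 to 22.3%) and 14.9% (8.93 to 22.8%) and WT set a 16.8% (11.8 to 22.7%) and 23.5% (18.9 to 28.7%), and these intervals overlapped. At chr9:3024457, a tttCGtca site, K777A had 13.0% (10.6 to 15.7%) and 15.5% (13.5 to 17.6%) and WT set b 12.5% (2.66 to 32.4%) and 14.3% (0.361 to 57.9%), so that no difference was detectable at this depth. DNMT3A had 56.5% (34.5 to 76.8%) and 30.6% (16.3 to 48.1%) at chr9:3024457, above the 4.17% (0.105 to 21.1%) and 1.05% (0.0266 to 5.73%) of WT set a. At chr11:3193781, within the printed chromosome 11 piece, DNMT3A had 25.1% and 43.6% and WT set a 19% and 28.4%, which overlap. K777A had 5.80% (1.60 to 14.2%) and 11.3% (6.70 to 17.4%) there and WT set b 28.0% (19.1 to 38.2%) and 12.8% (7.63 to 19.7%), and some of these intervals overlapped. These intervals cover counting error only, since amplified reads are not independent molecules.

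Over all deep pericentromeric sites together, methylated reads made up 35.2% ± 0.544 in DNMT3A and 14.6% ± 0.406 in WT set a, a difference of 20.7 points without overlap, and 11.3% ± 0.437 in N656I, a difference of -3.24 points without overlap (SD, n = 2 each; exact permutation p = 0.333 for both). K777A (10.9% ± 1.2) and N779A (13.0% ± 0.598) both overlapped WT set b (13.4% ± 2.66; exact permutation p = 0.667 and 1, n = 2 each). Apart, K777A was lower without overlap both in the first 40 kb of chromosome 9 (-3.10 points) and at the other deep sites (-3.22 points), as it was with each site counted once (-4.0 points; exact permutation p = 0.333 for each, n = 2 each).

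CENP-B, the protein that binds a box in centromeric minor satellite, needs unmethylated CpG sites in that box for full binding. The box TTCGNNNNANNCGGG was searched on both strands, and 10 matches were found in the ends, 0.267 per Mb of sequence against 0.259 per Mb in the control region. Matches stood in 8 of 19 ends (42.1%) and in 71 of 190 control windows of 2 Mb (37.4%). They are printed on their own strand with CpG in capitals, because the 2 CpG sites of each are the ones the box defines.
chr7:3694071-3694085, minus strand: ttCGgctcaatCGgg
chr8:3280011-3280025, minus strand: ttCGagtcaggCGgg
chr10:3562749-3562763, minus strand: ttCGttgaaaaCGgg
chr11:3530426-3530440, plus strand: ttCGtttcagaCGgg
chr11:4236639-4236653, plus strand: ttCGaagaaaaCGgg
chr12:3244913-3244927, minus strand: ttCGttataaaCGgg
chr12:4134248-4134262, minus strand: ttCGtaagaccCGgg
chr13:3414468-3414482, minus strand: ttCGgtagagtCGgg
chr15:3280638-3280652, plus strand: ttCGcatgaggCGgg
chr16:4789822-4789836, minus strand: ttCGaggtaaaCGgg
A match by letters is not a binding site, and these matches lie apart from each other, not in an array. Reads at their 20 CpG sites were few, from 0 in WT set a replicate 2 to 70 in K777A replicate 2. DNMT3A replicate 1 had 1 methylated read of 29 (95% exact binomial interval 0.0873 to 17.8%) and DNMT3A replicate 2 had 18 of 22 (59.7 to 94.8%). The intervals of these lines of 1 group did not overlap. The match at chr11:4236639 lies in Osm and had 0 reads in all lines.

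The ends hold 419 protein-coding genes with a body to measure, taken from 2000 bp after the start to the end of the gene. limma called 0 member genes in all 4 comparisons and 0% of all genes in each, with 173, 173, 285 and 282 members among 9665, 9668, 14395 and 14344 genes with 10 covered sites in all 4 lines. Unadjusted p-values were below 0.05 for 10, 6, 24 and 19 members and for 508, 301, 1102 and 803 of all genes. Without WT set a replicate 1, limma called 71 of 173 members in DNMT3A and 32 of 174 in N656I, with 4866 and 1955 of all genes. Without WT set a replicate 2 it called 7 of 310 members in DNMT3A, with 310 of 15121 genes in all, and without WT set b replicate 2 it called 4 of 293 in K777A, with 118 of 14619 in all. The fit had 2 lines a group, and the SE of the named genes ran from 0.13 to 0.98 on the log2 scale. An absence of calls therefore does not show an absence of change. edgeR was not run on genes. The values of named genes are therefore given as levels, as means over covered sites in a line.

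The named genes were listed by role from among the members. Of the 8 chromatin regulators, Dnmt3a itself (chr12:3806007-3914443, plus strand; the gene of the endogenous enzyme, disrupted in these cells) had 41.5% and 42.0% body methylation in the DNMT3A lines, 15.8% and 16.9% in WT set a, 14.8% and 15.1% in N656I, 17.0% and 16.1% in WT set b, 6.86% and 6.24% in K777A, and 12.8% and 11.1% in N779A. DNMT3A lines were above all others, K777A below all others and N779A below WT set b, each without overlap, with 64 to 695 of the body's sites covered. Relative to the genome median, the K777A change was -0.39 on the log2 scale with an SE of 0.19 (limma adjusted p = 0.670).

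Kmt5b (chr19:3767421-3818303, plus strand), which encodes the partner H4K20 methyltransferase of Kmt5c, had 48.6% and 48.3% in DNMT3A, 19% and 18.8% in WT set a and 8.66% and 9.91% in K777A against 14.1% and 14.6% in WT set b. The K777A drop accompanies the lower level of these lines across the genome: relative to the genome median the change was 0.35 on the log2 scale with an SE of 0.27 (limma adjusted p = 0.785). Kmt5c (chr7:4740115-4747514, plus strand) had 5 to 40 covered sites and lines of 1 group far apart, such as 27.4% and 1.92% in WT set b. The H3K36 demethylase gene Kdm2a had 38.8% ± 1.10 in DNMT3A and 23.1% ± 5.08 in WT set a, the acetyltransferase gene Crebbp 44.1% ± 0.226 and 21.2% ± 0.989, the coactivator gene Ncoa1 47.8% ± 0.789 and 20.7% ± 0.546, the Polycomb-related Asxl2 45.9% ± 3.02 and 22.2% ± 1.85, and the heterochromatin ATPase gene Morc2a 51.0% ± 6.97 and 28.1% ± 1.22 (SD, n = 2 each). These higher levels go with the higher level of DNMT3A across the genome. Relative to the genome median the changes were -0.41 for Kdm2a, -0.13 for Crebbp, 0.016 for Ncoa1, -0.14 for Asxl2 and -0.28 for Morc2a on the log2 scale, and none passed (limma adjusted p from 0.738 to 0.975).

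Ligand genes were short and thinly covered, and 1 of 5 had 10 covered sites in every line. That was Lif (chr11:4257557-4272514, plus strand), the gene of the cytokine that keeps mouse ES cells undifferentiated. Its body had 19.6% and 17.4% in DNMT3A, 7.09% and 5.84% in WT set a, 6.49% and 6.53% in N656I, 11.8% and 7.21% in WT set b, 3.10% and 2.27% in K777A, and 2.01% and 2.98% in N779A. Both mutant groups were below WT set b without overlap, and the N779A change relative to the genome median, -1.60 on the log2 scale with an SE of 0.39, did not pass (limma adjusted p = 0.882). Pomc, the precursor gene of melanocortins and endorphin, stayed at 0 to 7.41% in all 12 lines, with 1 covered site in WT set a replicate 2. Penk, Gal and Osm, genes of enkephalin, galanin and oncostatin M, had 1 to 32 covered sites and values of a group as far apart as 50.0% and 19.4% for Penk in DNMT3A.

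The insulin receptor gene Insr (chr8:3122061-3279617, minus strand) had 35.1% and 30.4% in DNMT3A, 19% and 17.0% in WT set a, 13.8% and 9.16% in N656I, 14.8% and 13.6% in WT set b, 7.31% and 5.96% in K777A, and 10.5% and 11.7% in N779A. Relative to the genome median, the changes were -0.38 in N656I, -0.20 in K777A, where the lines overlapped, and -0.21 in N779A on the log2 scale, and none passed (limma adjusted p = 0.913, 0.865 and 0.924). The Wnt co-receptor gene Lrp5 had the highest DNMT3A level of the receptors (46.8% and 52.0%), the growth hormone receptor gene Ghr had 36.7% and 39.0%, and the calcitonin receptor gene Calcr 35.5% and 37.0%. Fzd1, an intronless Wnt receptor gene, had 1 to 37 covered sites and ranged from 0 to 40.0%.

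Among transcription factor genes Sox17 stood apart. Sox17 (chr1:4490931-4497354, minus strand), an endoderm factor with a CpG-dense body, stayed between 0.108% and 3.02% in all 12 lines, at 1.33% and 2.31% even in DNMT3A, with 32 to 170 covered sites. Hnf4g, Plag1, Crem and Glis2, by contrast, had 31.7% ± 4.30, 45% ± 0.450, 45.9% ± 0.939 and 26.8% ± 1.75 in DNMT3A (SD, n = 2 each). Plag1, a zinc finger growth factor regulator, had 22.5% and 25.0% in WT set a but 5.62% and 12% in WT set b, so the WT sets themselves did not overlap. Its K777A change relative to the genome median was 0.89 on the log2 scale with an SE of 0.43 (limma adjusted p = 0.669). Tfap4 had 6 covered sites in WT set a replicate 2 and 0% there, against 11.9% in replicate 1.

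**Figure D5:**
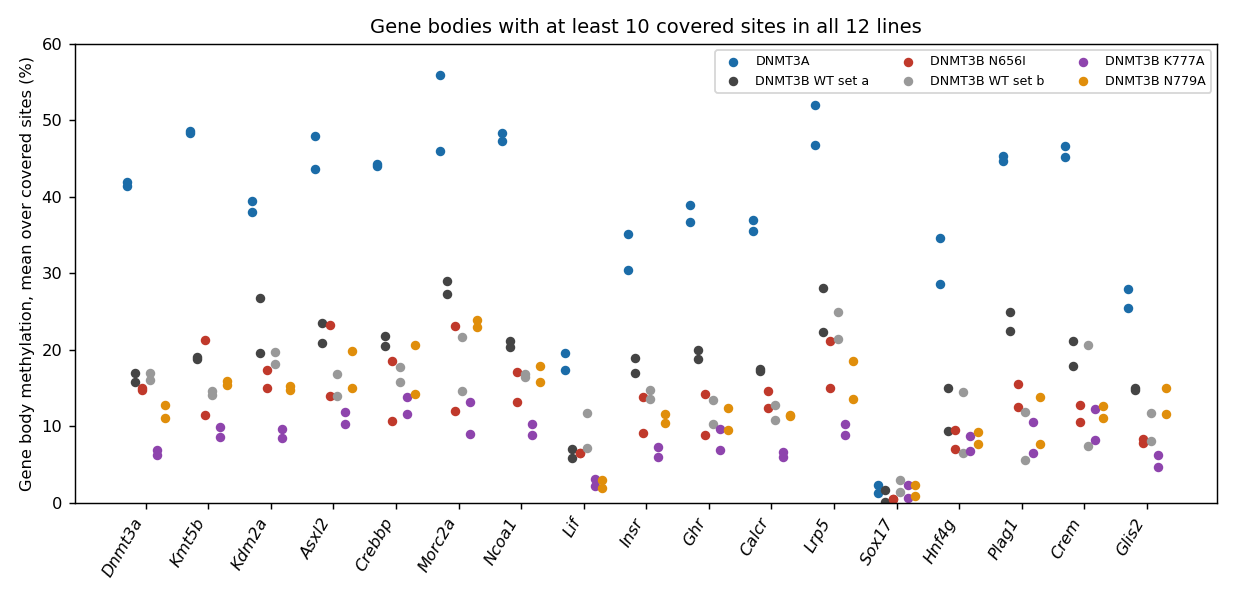
Body methylation (percent, mean over covered CpG sites) of the named genes at the pericentromeric ends that had at least 10 covered sites in all 12 lines, 1 point per line and coloured by group. DNMT3A points lie on top in all genes but Sox17, whose 12 points lie between 0.108% and 3.02%.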

How the data were processed

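Per the labels and methods, genomic DNA was digested with MspI, BfaI and MseI, bisulfite converted and sequenced as paired ends. The authors trimmed reads with cutadapt (1.12 in the submitters' processing notes), aligned them to mm10 (GRCm38) with Bismark 0.18.1 and Bowtie 1.2, and deposited counts of methylated and of all reads per CpG site as 24 sample columns, with no normalization. Reads on autosomal CpG sites ranged from 15916823 to 35245822 per line.

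From these counts, methylation was averaged in each line as a percentage over sites with at least 10 reads, with control sites weighted by chromosome and 7 CpG density classes. Differences over lines were tested by exact sign flips and groups by exact permutation, two-sided. For windows of 2 Mb (at least 20 sites per line) and gene bodies (at least 10 sites), log2 of (observed + 0.5) over (expected + 0.5) methylation, centred on the median feature, was tested with limma 3.58.1 (R 4.3.3) with Benjamini-Hochberg adjustment at 0.05. edgeR 4.0.16 was the alternative. Python 3.11.15, NumPy 2.4.6 and pandas 2.3.3 did the rest, with annotation from GENCODE and sequence from RefSeq. The tests were tested on simulated data. Other alternatives changed the read minimum, control region, weighting, centring and window size, or left out lines, chromosomes or the chromosome 9 repeat.

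The ends are defined by position, and they and the gene lists were chosen with earlier results of these data known. Named were the 3 highest and 3 lowest ends, any end called, the 5 deepest stretches and 24 member genes listed by role.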

Additional observations from a re-analysis of the deposited data

Results flagged for a closer look

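The difference between pericentromeric ends and control was above 0 in every K777A line and below 0 in every line of 4 other groups. The mean difference was lower than in K777A by the following amounts: DNMT3A minus K777A was -1.87 percentage points, WT set a minus K777A was -1.65, N656I minus K777A was -1.20 and WT set b minus K777A was -2.22. These differences between groups were not tested. K777A replicate 1 had 1780 pericentromeric sites with 10 reads, the fewest of all lines, and without the first 40 kb of chromosome 9 the K777A lines stood at 0.135 and -0.179 points, no longer both above 0. With every covered site both were below 0 (-0.0324 and -0.0553 points).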

How the results depend on the processing

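The mean difference between ends and control, -0.522 points, reversed to 1.32 with a minimum of 20 reads and to 0.256 with reads counted equally, and the cause was not tested. It passed 0.05 at -0.427 with a minimum of 5 reads, -0.387 with every covered site, -0.679 without the deepest 0.1% of sites, -0.684 without chromosome 9 or without its first 40 kb and -0.593 against all other autosomal positions. Leaving out 1 line gave -0.698 to -0.410, passing without K777A replicate 1 or 2 or N779A replicate 1. Without these 3 lines together it was -0.909, and without chromosome 7 -0.374. The alternatives using chromosome 7, the first 40 kb of chromosome 9 and the 3 lines together were chosen after seeing the data.

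Windows called by limma, in the order DNMT3A, N656I, K777A and N779A, were 0, 0, 33 and 21. In DNMT3A the count was 1 with log2 odds and 1209 with edgeR. In K777A it was 5 and 0 with minimums of 5 and 10 reads, 65 with log2 odds, 1203 with edgeR and 0 in 100-kb windows. In N779A it was 0 and 0 with these minimums, 33 with log2 odds, 34 without centring, 6 with edgeR and 0 in 100-kb windows. Leaving out 1 line gave 0 to 766, 0 to 246, 0 to 2 and 0 to 99 windows and 0 to 4866, 0 to 1955, 0 to 118 and 0 to 27 genes in this order. The largest counts in DNMT3A and N656I came without WT set a replicate 1, which leaves the line with the fewest covered sites.

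Same-numbered lines shared only a number: their deviations correlated at 0.0089, 0.11, -0.18 and 0.067. With the replicate block, 2 windows were called in DNMT3A, 11 in K777A and 24 in N779A, and 79, 34 and 49 genes in DNMT3A, N656I and K777A. Of the pericentromeric members, the block called 1 gene in DNMT3A and 2 in N656I. Pairing K777A and WT set b by crossed numbers, chosen after seeing the data, gave 175 windows and 31 genes.

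Without 1 line, group differences in level were 13.6 to 19.8, -4.28 to -1.62, -5.75 to -3.87 and -2.44 to -0.562 points. Those in the log2 ratio of ends to control were 0.0180 to 0.0476, 0.0119 to 0.0663, 0.230 to 0.593 and -0.00229 to 0.201. Those at deep sites were 20.3 to 21.1, -3.55 to -2.93, -4.40 to -0.636 and -2.31 to 1.45 points. The N779A ratio reversed without N779A replicate 1 and its deep-site difference without WT set b replicate 1. The deep-site difference of N779A also reversed to 0.665 over the top 1% by depth.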
